A study of Mus musculus and Homo sapiens with 8 samples.

Results

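The baseline expression programmes of mouse blood stem and progenitor cells and of a human leukemia line were set side by side in control libraries. The libraries were the controls of the series, 4 of its 8 samples, taken by their labels. The mouse group was LSK cells from bone marrow of wild-type (WT) C57BL/6 animals (LSK WT, n = 2). The human group was KU812, an established line of chronic myelogenous leukemia (CML), with shNC, the control transfection (KU812 shNC, n = 2). The series as a whole concerns loss of ANP32B, a nuclear histone chaperone, and the other 4 libraries, Anp32b-KO LSK cells and KU812 cells with shANP32B, entered no value below unless they are named. The sources used here do not give the age of the mice, the details of the sort, the sequence of the hairpin or whether replicates are separate mice or cultures. The p-values therefore rest on the spread of these libraries alone, and that spread can be technical. KU812 is a single line derived from 1 patient's leukemia.

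Genes were compared where the upper-case symbol was the same in both species and unique in each, which gave 10855 shared symbols. These made up 63.5% of the 17097 genes in the mouse tables and 53.5% of the 20296 genes in the human tables, and they held 88.0% of the deposited counts in both LSK WT libraries and 90% and 90% in the KU812 shNC libraries. A shared symbol is not a tested ortholog. Species, cell type, fresh or cultured origin, the hairpin vector and the length of each transcript all differ with the group and cannot be told apart. In bulk RNA, fewer cells of a type and less RNA per cell cannot be told apart either.

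LSK stands for lineage-negative, Sca-1-positive, c-Kit-positive, the mouse marrow fraction in which blood stem cells and their multipotent progeny are found. Their identity rests on transcription factors such as HLF, MECOM, MEIS1 and the HOXA proteins, and on cytokine receptors such as that for stem cell factor. As progenitors commit to the erythroid, megakaryocyte, basophil and mast cell branches, they raise GATA2 and then GATA1, which act with TAL1, GFI1B and KLF1 on hemoglobin, heme and membrane skeleton genes. KU812 cells come from blood of CML in its blast phase, carry the BCR-ABL1 fusion kinase, which signals through STAT5, and are known for basophil and erythroid traits.

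Library totals were 15683480 and 10549358 counts in LSK WT and 28209409 and 25354809 in KU812 shNC. Levels are counts scaled to a common library size, given as CPM, over the shared symbols after TMM scaling (trimmed mean of M values), and the level of 3 counts, below which a value is not read, stood at 0.212 and 0.313 CPM in LSK WT and at 0.121 and 0.136 CPM in KU812 shNC. CPM is not per length, so a level or a rank is set against the same symbol in the other group and not against other genes. Differences are log2 values, KU812 shNC minus LSK WT, with the standard error (SE) from edgeR, and a gene was called when the adjusted p of edgeR's quasi-likelihood test was under 0.05. The LSK WT libraries differed more from each other than the KU812 shNC libraries did, as their chi-square statistics show (51.9 and 21.5 for each degree of freedom). The first of them held far more immunoglobulin RNA, with 0.746% of its counts on Ighm against 0.163% in the second. The second held more RNA listed under Rn18s-rs5, a ribosomal RNA entry, at 0.851% against 0.0293%.

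Most shared genes differed between the groups by more than the replicates did. Of the 10855 symbols, 187 were too low to test. Of the 10668 tested, 7340 were called (68.8%), of which 3654 were higher in KU812 shNC (34.3%) and 3686 were higher in LSK WT (34.6%). With a difference of at least 4-fold, 1163 were higher in KU812 shNC (10.9%) and 1466 were higher in LSK WT (13.7%). The groups did not overlap for 9199 symbols in all, 4623 with KU812 shNC above and 4576 with LSK WT above. A count of genes in a list is therefore read below against those shares.

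Ranks within a library carried the same contrast without any scaling between species. Across the 10855 symbols the Spearman correlation was 0.982 between the LSK WT libraries, 0.992 between the KU812 shNC libraries and 0.666 to 0.680 between a library of each group. This is a correlation across genes, which are not replicates. The median difference in rank of a gene was 303.5 places within LSK WT, 229 within KU812 shNC and 1232.5 to 1255 between the groups. Of the 100 highest-ranked symbols by group mean, 40 were shared (40%), whereas the top 100 of replicate libraries shared 80% in LSK WT and 95% in KU812 shNC. Of the top 1000, 534 were shared (53.4%).

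**Figure D1:**
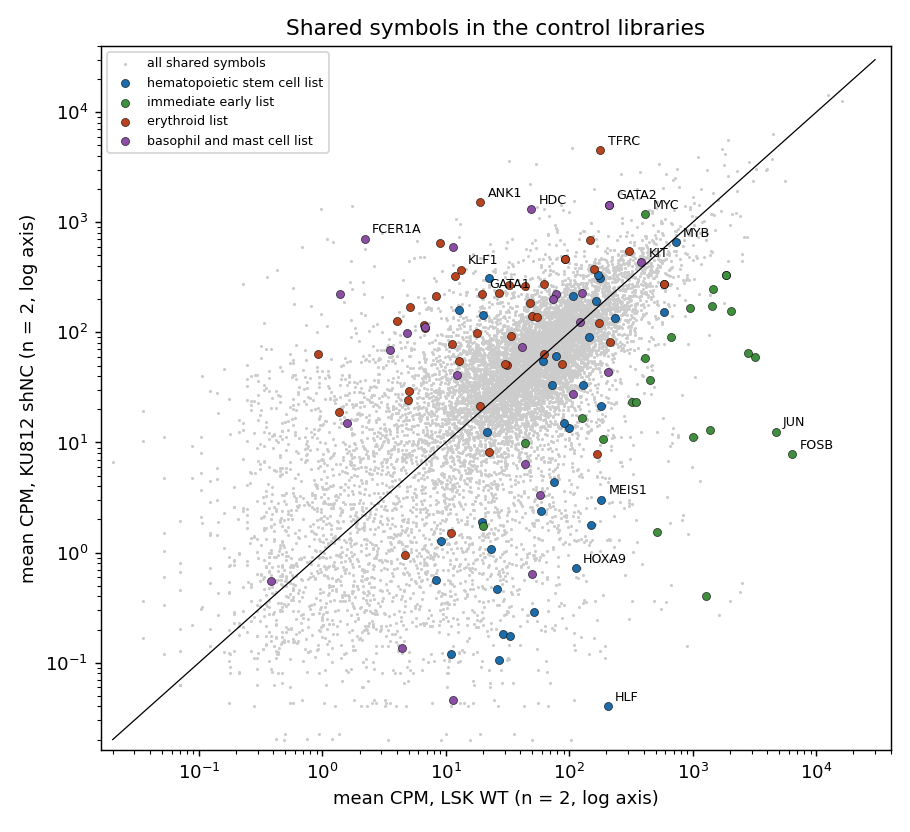
Mean CPM of each shared symbol in LSK WT (x axis, log) and KU812 shNC (y axis, log), n = 2 libraries each, with the members of 4 gene lists in colour and the line of equal levels in black. Means under 0.02 CPM are drawn at 0.02. KIT and MYB lie near the line, HLF, FOSB and JUN far below it, and FCER1A, ANK1 and TFRC far above it.

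The genes at the very top were housekeeping genes in both groups. EEF1A1, a translation elongation factor, ranked 2 in both LSK WT libraries and 1 in both KU812 shNC libraries. COX1, a subunit of the respiratory chain encoded in the mitochondrion, ranked 1 in LSK WT and 2 in KU812 shNC. Neither was called (log2 difference 0.21, SE 0.24, edgeR adjusted p = 0.461 for EEF1A1, and -0.34, SE 0.23, edgeR adjusted p = 0.207 for COX1). EEF2 and HSP90AB1 were also among the 10 highest by mean level in both groups. The LSK WT list of 10 also held FOSB and JUN, which are immediate early transcription factors. The KU812 shNC list also held TFRC, the transferrin receptor, and FTH1, the heavy chain of the iron store ferritin.

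The labelled cell types were checked against their markers first. In LSK WT the gene of Sca-1, Ly6a, stood at 58.6 and 45.2 CPM of the whole library, Flt3 at 459 and 438, and the stem cell factor receptor KIT at 362 and 406 CPM over shared symbols. Of the genes that mark the lineages left out by the gate, in the same whole-library CPM, the B cell gene Ms4a1 was at 0.956 and 0.569 and the granulocyte gene Ly6g at 2.30 and 2.28. The T cell genes Cd8a and Cd3g were at 10.01 and 4.36 and at 4.78 and 0.664. The 9 lineage genes with a shared symbol summed to 615 and 514 CPM in LSK WT, of which PTPRC, the CD45 protein of nearly all white cells and their progenitors, made up 414 and 344 CPM and ITGAM, a myeloid integrin chain, 132 and 124 CPM. Not all genes of mature lineages were as low as these B, T and granulocyte genes, as ITGAM and the neutrophil genes given below show. Immunoglobulin transcripts were also abundant. IGK was at 4023 and 802 CPM, IGKC at 3345 and 639 CPM and IGH at 3856 and 1186 CPM in LSK WT, against at most 0.726 CPM in KU812 shNC.

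Of the 15 tested B cell genes, 9 were higher in LSK WT and 3 in KU812 shNC, and their summed level was 503 and 384 CPM in LSK WT against 369 and 334 CPM in KU812 shNC. CD22, an inhibitory B cell receptor, had no counts in KU812 shNC and 50 and 31 in LSK WT, which made it at least 23.8-fold higher there. The part that other cells in the sort had in the LSK WT values was not tested. In KU812 shNC the high-affinity IgE receptor chain FCER1A, histidine decarboxylase HDC and the fetal globin HBG2 were all abundant, as described below.

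Stem cell genes were mostly higher in LSK WT. Of 39 tested genes of a hematopoietic stem cell list, 27 were higher in LSK WT and 8 in KU812 shNC, with a median log2 difference of -2.48 against 0.00 over all tested symbols. The median percentile of the list, where 100 is the highest level in a library, was 73.1 and 76.9 in LSK WT and 36.3 and 34.9 in KU812 shNC. HLF, a PAR bZIP factor of stem cells, was at 192 and 216 CPM in LSK WT and had 2 counts and 0 counts in the KU812 shNC libraries. MEIS1, the homeobox partner of HOX proteins, was at 176 and 188 CPM in LSK WT and at 3.50 and 2.54 CPM in KU812 shNC (log2 difference -5.90, SE 0.22, edgeR adjusted p = 6.2e-08).

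HOXA9, which works with MEIS1 in stem cells and in many leukemias, was at 101 and 124 CPM against 0.804 and 0.635 CPM (log2 difference -7.27, SE 0.26). HOXA5 and HOXA7 lay beside it, with log2 differences of -7.21 and -7.49. Within the HOX and MEIS list, 12 of 15 tested genes were higher in LSK WT and 2 in KU812 shNC. HOXB2, among the latter, had a log2 difference of 4.35. It stood at 54.4 and 53.1 CPM in KU812 shNC, so the HOX genes did not all go one way. MECOM, a zinc finger factor needed for stem cell maintenance, was lower in KU812 shNC but far from the floor, at 13.4 and 13.5 CPM against 98.4 and 101 CPM (log2 difference -2.89, SE 0.17).

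Of 9 tested genes of the surface proteins that define the LSK gate and its fractions, 7 were higher in LSK WT and 1 in KU812 shNC, the latter being ITGA2B. CD34 was at 805 and 553 CPM in LSK WT and 13.4 and 10.5 CPM in KU812 shNC, a log2 difference of -5.82 (SE 0.27). CD27, a TNF receptor family member of multipotent and lymphoid cells, was at 163 and 154 CPM in LSK WT with 5 and 3 counts in KU812 shNC. In the multipotent and lymphoid progenitor list, 17 of 22 tested genes were higher in LSK WT and 2 in KU812 shNC (median log2 difference -2.77). The 17 included SATB1, a chromatin organiser of lymphoid fate, at -8.54, and BCL11A, which represses fetal globin genes, at 144 and 191 CPM against 8.77 and 7.03 CPM. The 2 higher in KU812 shNC were TCF3 and IKZF3, at 0.59 and 2.77, and the call of TCF3 was lost without KU812 shNC replicate 1 (edgeR adjusted p = 0.0558) or replicate 2 (edgeR adjusted p = 0.0659).

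Several regulators of blood cells were not called. KIT stood at 362 and 406 CPM in LSK WT and 444 and 421 CPM in KU812 shNC (log2 difference 0.17, 95% confidence interval -0.20 to 0.55, edgeR adjusted p = 0.373). MYB, a factor of proliferating progenitors, stood at 683 and 780 CPM against 628 and 693 CPM (interval -0.55 to 0.26). CDK6, the cyclin D kinase of hematopoietic cells, stood at 598 and 695 CPM against 590 and 645 CPM (interval -0.47 to 0.34). Each of these intervals leaves room for a difference of up to about 1.5-fold. RUNX1 was higher in KU812 shNC by a log2 difference of 0.94 (SE 0.16), and LMO2, the bridge of the TAL1 and GATA complex, was lower by a log2 difference of -1.10 (SE 0.18).

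The erythroid programme lay on the other side. Of 42 tested erythroid genes, 32 were higher in KU812 shNC and 8 in LSK WT, with a median log2 difference of 2.27. The median percentile was 33.0 and 41.5 in LSK WT and 81.6 and 82.0 in KU812 shNC, and the summed level of the list was 2508 and 3095 CPM against 12830 and 13329 CPM. GATA1, the master factor of the branch, was at 18 and 21.2 CPM in LSK WT and 221 and 230 CPM in KU812 shNC (log2 difference 3.53, SE 0.18, edgeR adjusted p = 2.5e-07). KLF1, which drives adult globin and membrane genes, was at 7.15 and 19.4 CPM against 359 and 381 CPM (log2 difference 4.83, SE 0.39). The LSK WT libraries differed from each other for KLF1 by more than 2-fold, and both stayed far below KU812 shNC.

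GATA2, which stem cells, basophils and mast cells share, was at 162 and 259 CPM in LSK WT and 1582 and 1311 CPM in KU812 shNC, a 6.88-fold difference in the means. TAL1 was higher in KU812 shNC by a log2 difference of 2.33 (SE 0.21) and GFI1B by 3.04 (SE 0.26). SPI1, the ETS factor PU.1 of myeloid and lymphoid cells, went the other way, at 198 and 192 CPM against 78.6 and 83.1 CPM (log2 difference -1.27, SE 0.16).

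Further genes of red cell differentiation, from iron uptake to the membrane skeleton, were also higher in KU812 shNC. TFRC, which brings iron into the cell, went from ranks 1069 and 1168 in LSK WT to ranks 6 and 7 in KU812 shNC, at 187 and 170 CPM against 4315 and 4666 CPM. ANK1, the ankyrin of the red cell membrane skeleton, was at 12.3 and 25.6 CPM against 1486 and 1574 CPM (log2 difference 6.35, SE 0.36). RHAG, of the Rhesus complex, and ALAS2, the erythroid enzyme that starts heme synthesis, had log2 differences of 6.22 and 6.14. Of the heme pathway, UROS, UROD, CPOX and FECH were also higher in KU812 shNC, by 1.52 to 2.59 on the log2 scale, whereas ALAD was lower at -0.75.

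Globin genes have no shared symbols and are given within KU812 shNC alone. HBG2, a fetal globin, was the most abundant unmatched human gene at 3178 and 3639 CPM of the whole library. The embryonic HBE1 was at 166 and 189 CPM and the adult HBB at 72.0 and 77.8 CPM. Not all such genes were abundant, with the alpha globin HBA1 at 2.13 and 3.94 CPM and the red cell gene AHSP at 4.32 and 6.59 CPM. HBG1 and HBG2 are nearly identical, and HBG1 was listed at 90.1 and 79.7 CPM, so the split between them is uncertain. Carbonic anhydrase CA1, a late erythroid gene, was at 1142 and 1254 CPM. Of the tested iron genes, 12 of 22 were higher in KU812 shNC and 5 in LSK WT. SLC40A1, the iron exporter ferroportin, was at 11 and 14.5 CPM against 741 and 730 CPM, and FTH1 at 1119 and 1101 CPM against 3583 and 4189 CPM.

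Basophil and mast cell genes leaned to KU812 shNC, with members going both ways. Of 23 tested, 14 were higher in KU812 shNC (60.9%) and 7 in LSK WT (30.4%), with a median log2 difference of 1.44. Of all tested symbols, 34.3% and 34.6% were. FCER1A, the ligand-binding chain of the IgE receptor, had 33 and 20 counts in LSK WT and 16604 and 16521 in KU812 shNC, or 2.34 and 2.08 CPM against 668 and 749 CPM (log2 difference 8.31, SE 0.24, edgeR adjusted p = 3.5e-08). HDC, which makes histamine, was at 52.3 and 45.9 CPM against 1412 and 1218 CPM (log2 difference 4.74, SE 0.22). CPA3, a granule carboxypeptidase, was at 12 and 10.9 CPM against 596 and 593 CPM, and HPGDS, which makes prostaglandin D2, had a log2 difference of 7.35 (SE 0.30).

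Other members of the same list were far lower in KU812 shNC. IL3RA, the alpha chain of the interleukin-3 receptor and a usual basophil marker, was at 47.8 and 52.3 CPM in LSK WT and at 0.563 and 0.726 CPM in KU812 shNC (log2 difference -6.27, SE 0.28). FCER1G, the signalling chain of the IgE receptor, was at 46.3 and 41.8 CPM against 5.91 and 6.76 CPM, so the chains of one receptor differed in opposite directions. ALOX5, which starts leukotriene synthesis, had log2 difference -7.83 with 0 and 2 counts in KU812 shNC. LTC4S, the later enzyme of that pathway, was higher in KU812 shNC at 4.33.

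Genes of the eosinophil list, which holds more than granule genes, were uneven. Of 11 tested, 5 were higher in KU812 shNC (45.5%) and 4 in LSK WT (36.4%). Of all tested symbols, 34.3% and 34.6% were. PRG2, the major basic protein, was at 43.8 and 30.8 CPM in LSK WT and 1957 and 1718 CPM in KU812 shNC (log2 difference 5.62, SE 0.26). EPX, eosinophil peroxidase, overlapped between the groups at 20.3 and 12.2 CPM against 20.1 and 20.6 CPM (log2 difference 0.31, 95% confidence interval -0.30 to 0.93, edgeR adjusted p = 0.329). Within KU812 shNC, CLC, the Charcot-Leyden crystal protein, stood at 29.6 and 34.1 CPM of the whole library and ENPP3, the basophil surface enzyme CD203c, at 550 and 483 CPM.

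Megakaryocyte and platelet genes leaned to KU812 shNC, with members going both ways. Of 29 tested, 16 were higher in KU812 shNC (55.2%) and 10 in LSK WT (34.5%), with a median log2 difference of 1.00. Of all tested symbols, 34.3% and 34.6% were. The integrin chains of the platelet fibrinogen receptor, ITGA2B and ITGB3, were higher in KU812 shNC at 3.66 and 3.89, and so was TUBB1, the platelet tubulin, at 4.30 (SE 0.48). VWF, which stem cells with a platelet bias share, was higher in LSK WT, at -4.62. PF4, a platelet granule chemokine, was also higher in LSK WT at -1.61.

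**Figure D2:**
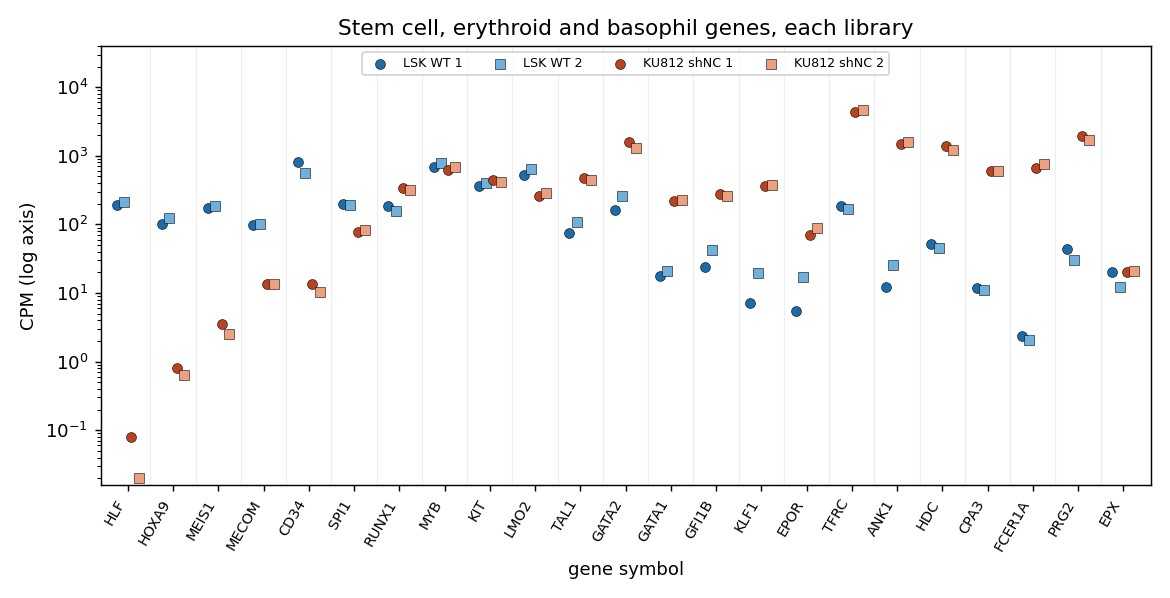
CPM (log axis) of 23 stem cell, erythroid, basophil and eosinophil genes in each of the 4 control libraries. Values under 0.02 CPM are drawn at 0.02, which applies to HLF in KU812 shNC replicate 2. HLF, HOXA9, MEIS1 and CD34 are higher in both LSK WT libraries, KIT and MYB lie together, and GATA1, KLF1, TFRC, ANK1, HDC, CPA3 and FCER1A are higher in both KU812 shNC libraries.

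Neutrophil and monocyte genes were higher in LSK WT. Of 19 tested myeloid progenitor genes 16 were higher in LSK WT and 2 in KU812 shNC, and of 25 genes of mature neutrophils and monocytes 20 and 3. CTSG, a protease of primary granules, was at 675 and 653 CPM in LSK WT with 16 and 8 counts in KU812 shNC (log2 difference -10.33, SE 0.29). CSF3R, the G-CSF receptor, was at 351 and 337 CPM against 2.05 and 1.90 CPM. CEBPA, the factor that opens the granulocyte programme, was at 93.9 and 129 CPM against 20.7 and 18.4 CPM (log2 difference -2.51, SE 0.20). Within LSK WT, the unmatched granule genes Mpo and Elane stood at 5873 and 4462 CPM and at 1051 and 845 CPM of the whole library.

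Genes of mature cells were part of this. S100A9 and S100A8, the calprotectin subunits of neutrophils and monocytes, were at 373 and 402 CPM and at 198 and 205 CPM in LSK WT, and at most 1.54 CPM in KU812 shNC. LTF and CAMP, of secondary granules, stood at 104 and 124 CPM and at 75.0 and 100 CPM in LSK WT. The summed level of the mature list was 2281 and 2209 CPM in LSK WT against 498 and 437 CPM in KU812 shNC. Whether these transcripts came from cells inside the gate was not tested. CD68, CD300A and TLR4 were the mature genes higher in KU812 shNC, at 0.50, 2.22 and 0.84. Only CD300A was called under every setting run, since the call of TLR4 was lost without any 1 of the 4 libraries (edgeR adjusted p = 0.0604 to 0.202) and that of CD68 without LSK WT replicate 1 (edgeR adjusted p = 0.19) or KU812 shNC replicate 1 (edgeR adjusted p = 0.0837). CD33 and CSF2RB, the shared chain of the interleukin-3, interleukin-5 and GM-CSF receptors, were the progenitor genes higher there, at 3.15 and 2.54.

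Cytokine and growth factor receptors were uneven between the groups. Of 42 tested, 25 were higher in LSK WT and 12 in KU812 shNC, with a median log2 difference of -1.12. The chains of the interleukin-3 receptor family diverged: CSF2RB was at 135 and 107 CPM in LSK WT and 731 and 677 CPM in KU812 shNC, while CSF2RA was at 106 and 134 CPM against 0.362 and 0.272 CPM and IL3RA was low as given above. IL3RA and CSF2RA lie in the pseudoautosomal region, which human reference sequences hold as near-identical copies on X and Y, so their counts are uncertain. Of the genes of the pseudoautosomal regions, 8 are listed in the human tables, and they had 6 to 254 counts in the KU812 shNC libraries, with VAMP7, a membrane fusion protein of most cells, at 10 and 9. IL5RA, the alpha chain of eosinophils and basophils, was at 2.34 and 0.834 CPM against 15.0 and 14.8 CPM. EPOR, the erythropoietin receptor, was at 5.45 and 17 CPM against 69.5 and 87.4 CPM (log2 difference 2.84, SE 0.41). The second LSK WT library was more than 3-fold above the first for EPOR, and KLF1 and ANK1 were also higher in it.

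The BCR-ABL1 and STAT5 axis was mixed, with 18 of 52 tested genes higher in KU812 shNC and 21 in LSK WT (median log2 difference -0.12). These shares, 34.6% and 40.4%, lay near the 34.3% and 34.6% of all tested symbols. STAT5A, a main effector of the fusion kinase, was at 98.2 and 130 CPM in LSK WT and 520 and 549 CPM in KU812 shNC (log2 difference 2.23, SE 0.19), and STAT5B had a difference of 1.38 (SE 0.17). Known STAT5 target genes went both ways, with CCND2, described below, higher in LSK WT and several others higher in KU812 shNC. SOCS3, BCL2 and MCL1, also given below, were higher in LSK WT too. SOCS2, a feedback inhibitor, was at 13.6 and 12 CPM against 165 and 152 CPM (log2 difference 3.63, SE 0.18). PIM1, a survival kinase, was at 527 and 683 CPM against 3358 and 2138 CPM (log2 difference 2.18, SE 0.27), and PIM2, CISH and BCL2L1 had differences of 2.46, 1.64 and 2.93.

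The genes of the fusion partners were not higher in KU812 shNC. ABL1 was at 210 and 208 CPM against 197 and 182 CPM (log2 difference -0.14, 95% confidence interval -0.49 to 0.20, edgeR adjusted p = 0.422), and BCR was lower in KU812 shNC at -1.09 (SE 0.17). Counts per gene do not separate fusion from normal transcripts. INPP5D, the phosphatase SHIP1 that opposes PI3K, was at 283 and 270 CPM in LSK WT and 2.82 and 2.27 CPM in KU812 shNC (log2 difference -6.76, SE 0.22), and PIK3CD, the leukocyte PI3K subunit, was lower at -4.004. SOCS3, CBL and SPRY1, also inhibitors of cytokine signalling, were higher in LSK WT at -2.25, -1.49 and -1.47.

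Survival and cyclin D genes went opposite ways within their families. Of 17 tested BCL2 family genes, 9 were higher in KU812 shNC and 5 in LSK WT, and of 30 cyclin D and G1 genes, 10 and 15. BCL2 was at 122 and 128 CPM in LSK WT and 9.09 and 6.08 CPM in KU812 shNC (log2 difference -4.04, SE 0.23). BCL2L1, which encodes the related inhibitor BCL-XL, was at 25.4 and 19.3 CPM against 170 and 173 CPM (log2 difference 2.93, SE 0.19), and MCL1 was higher in LSK WT at -1.47. CCND2 was at 140 and 153 CPM in LSK WT and 1.69 and 0.816 CPM in KU812 shNC (log2 difference -6.84, SE 0.29). CCND1 was at 24.9 and 36.1 CPM against 231 and 202 CPM (log2 difference 2.84, SE 0.21). CCND3 was higher in KU812 shNC by 0.63 (SE 0.15), a call that was lost without KU812 shNC replicate 2 (edgeR adjusted p = 0.0545).

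ANP32B, the gene the series perturbs, was at 858 and 798 CPM in LSK WT and 281 and 318 CPM in KU812 shNC, a log2 difference of -1.47 (SE 0.18, edgeR adjusted p = 6.6e-05). It ranked 95 and 109 in LSK WT and 648 and 552 in KU812 shNC. Its relatives ANP32A (interval -0.77 to 0.00) and ANP32E (interval -0.04 to 0.68) were not called, but both lay near the threshold. ANP32A was called with all 8 libraries, with library totals and without LSK WT replicate 1 (edgeR adjusted p = 0.0239, 0.0313 and 0.0369) and with DESeq2 (adjusted p = 0.0298). ANP32E was called with all 8 libraries and without LSK WT replicate 1 (edgeR adjusted p = 0.0188 and 0.0362). Of 44 tested p53 target genes, 20 were higher in LSK WT and 11 in KU812 shNC (median log2 difference -0.41). CDKN1A, the p21 inhibitor, was at 267 and 101 CPM in LSK WT against 70.1 and 89.9 CPM (log2 difference -1.20, SE 0.37). That call was lost without LSK WT replicate 1 (log2 difference -0.33, edgeR adjusted p = 0.146) and with DESeq2 (adjusted p = 0.102). MDM2, the p53 inhibitor, was at 140 and 155 CPM against 95.5 and 107 CPM, a call lost without KU812 shNC replicate 1 (edgeR adjusted p = 0.152) and without replicate 2 (edgeR adjusted p = 0.0542).

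Immediate early genes, which cells switch on within minutes of a signal or a stress, had the highest share of members called of all the lists (95.7% higher in LSK WT). Of 23 tested, 22 were higher in LSK WT, all of them by at least 4-fold, and only MYC was higher in KU812 shNC. The median percentile of the list was 98.6 and 99.4 in LSK WT and 35.6 and 41.3 in KU812 shNC, and its share of the shared counts was 2.26% and 4.33% against 0.258% and 0.269%. The second LSK WT library held a larger share than the first, and both lay far above KU812 shNC. Promoters of 3 members are shown because they carry the elements through which such genes are known to respond. One is the CArG box, the site of serum response factor, and another is the cyclic AMP response element (CRE, TGACGTCA). They are the 300 bases from RefSeq (GRCm38.p6) that end 50 bases after the gene start, given on the gene's strand with the matched element in capitals:
Zfp36, chr7:28379179-28379478, minus strand, with a CArG box: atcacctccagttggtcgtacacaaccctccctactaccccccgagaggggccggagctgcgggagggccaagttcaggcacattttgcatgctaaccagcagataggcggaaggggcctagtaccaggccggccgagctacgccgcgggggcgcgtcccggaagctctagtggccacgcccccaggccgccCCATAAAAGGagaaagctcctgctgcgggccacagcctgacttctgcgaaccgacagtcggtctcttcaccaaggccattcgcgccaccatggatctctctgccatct
Dusp5, chr19:53528895-53529194, plus strand, with 2 CArG boxes: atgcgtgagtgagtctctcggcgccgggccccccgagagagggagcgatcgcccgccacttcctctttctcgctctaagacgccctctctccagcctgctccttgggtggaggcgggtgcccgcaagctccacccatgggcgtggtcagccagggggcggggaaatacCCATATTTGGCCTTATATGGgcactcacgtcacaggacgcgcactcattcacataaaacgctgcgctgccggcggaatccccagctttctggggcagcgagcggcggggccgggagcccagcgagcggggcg
Dusp1, chr17:26508423-26508722, minus strand, with a CRE: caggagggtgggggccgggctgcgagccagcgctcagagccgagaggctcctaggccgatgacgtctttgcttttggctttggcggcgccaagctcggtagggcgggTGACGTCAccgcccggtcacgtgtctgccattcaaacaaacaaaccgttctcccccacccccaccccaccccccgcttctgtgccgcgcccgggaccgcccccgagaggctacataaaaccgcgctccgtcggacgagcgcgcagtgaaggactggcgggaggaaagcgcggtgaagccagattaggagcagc

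Of the 19 immediate early genes with a RefSeq promoter in the table, 3 held a CArG box (15.8%) and 2 held a CRE (10.5%), searched on both strands of these windows. Among 8414 shared symbols with a promoter there, 135 held a CArG box (1.60%) and 308 held a CRE (3.66%). Egr2 was the other gene with a CArG box and Btg2 the other with a CRE, and the CArG boxes of Dusp5 started 82 and 72 bases before the gene start. Over all 32851 promoters of that length in the table, 1.63% held a CArG box and 1.79% a CRE. These matches are a description of the letters, and a window without them, such as those of Fos, Fosb and Jun, says nothing of the factors.

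FOSB, JUN and FOS encode subunits of the AP-1 factor. FOSB was at 4557 and 8261 CPM in LSK WT, ranks 6 and 3, and at 2.94 and 12.7 CPM in KU812 shNC (log2 difference -9.69, SE 0.75, edgeR adjusted p = 3.3e-06). JUN was at 2753 and 6656 CPM against 15.4 and 9.66 CPM (log2 difference -8.55, SE 0.53). FOS was at 1586 and 4748 CPM against 21.6 and 98.4 CPM (log2 difference -5.72, SE 0.77). In each case both LSK WT libraries lay above both KU812 shNC libraries, and the second LSK WT library lay above the first. The members with the printed promoters went the same way, ZFP36, which destabilises cytokine mRNAs, at 1879 and 3771 CPM against 60.4 and 69.2 CPM. The phosphatase genes DUSP5 and DUSP1 were at 192 and 185 CPM against 11.3 and 10.02 CPM, and at 553 and 1464 CPM against 7.52 and 14.7 CPM.

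KLF2, a quiescence factor of blood and vessel cells, was at 768 and 1794 CPM in LSK WT with 2 and 16 counts in KU812 shNC. ATF3 was higher in the first LSK WT library, at 660 and 369 CPM, against 2.33 and 0.726 CPM in KU812 shNC, and NR4A1 likewise at 1699 and 1068 CPM. EGR1, JUNB and IER2 had the smaller differences, at -2.48, -2.55 and -2.51, with EGR1 at 724 and 2967 CPM against 267 and 393 CPM. MYC, a growth factor response gene, was at 308 and 519 CPM in LSK WT and 1223 and 1134 CPM in KU812 shNC (log2 difference 1.51, SE 0.25). Some heat shock and unfolded protein genes lay with this group, but other members of their lists went the other way. The cytosolic chaperone list had a median log2 difference of -0.005, with single values from -9.67 to 6.83. It was called higher in LSK WT for 39.3% of members and in KU812 shNC for 28.6%, beside 34.6% and 34.3% of all tested symbols. The list of the endoplasmic reticulum and its stress response had a median of -0.26, with values from -5.48 to 3.28. DNAJB1, a co-chaperone, was at 296 and 581 CPM against 117 and 127 CPM, PPP1R15A at 511 and 1207 CPM against 180 and 213 CPM, and HSPA5 at 2345 and 3119 CPM against 788 and 689 CPM. Of 28 tested cytosolic chaperones, 11 were higher in LSK WT and 8 in KU812 shNC (6 and 5 without KU812 shNC replicate 1, and 8 and 4 without replicate 2). The part that cell sorting or culture had in these levels was not tested.

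**Figure D3:**
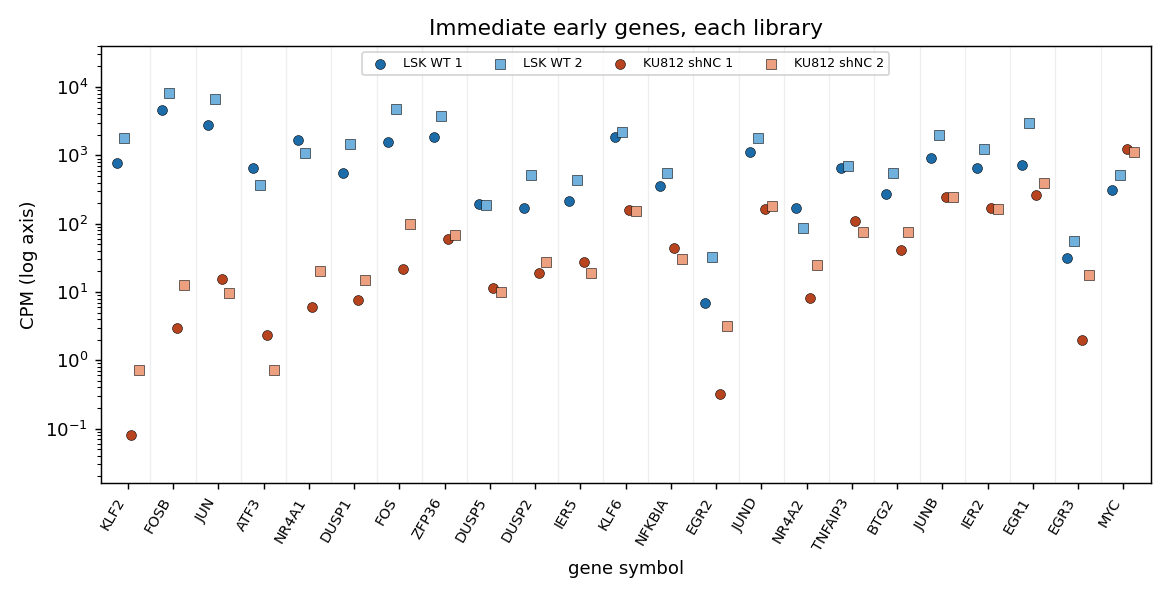
CPM (log axis) of the 23 immediate early genes in each of the 4 control libraries, ordered by log2 difference. Both LSK WT libraries lie above both KU812 shNC libraries for every gene except MYC, the last, where KU812 shNC lies above.

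Of 40 tested interferon response genes, 28 were higher in LSK WT and 3 in KU812 shNC (1 without KU812 shNC replicate 1), with a median log2 difference of -1.26. OAS2, an RNA sensor, was at 60.1 and 136 CPM in LSK WT and 1.17 and 2.27 CPM in KU812 shNC (log2 difference -5.84, SE 0.46). IRF7, the factor that amplifies the response, was at 52.3 and 112 CPM against 4.46 and 4.76 CPM. The second LSK WT library was the higher for both. B2M, the light chain of MHC class I, was at 2007 and 1585 CPM against 192 and 180 CPM (log2 difference -3.27). The other 9 were not called.

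Glycolysis and lipid synthesis genes leaned towards KU812 shNC, and respiratory chain genes towards LSK WT. Of 36 tested glycolysis and hypoxia genes, 27 were higher in KU812 shNC and 4 in LSK WT (median log2 difference 1.499). ENO2, a neuronal enolase that hypoxia induces, was at 2.48 and 3.02 CPM against 156 and 81.9 CPM, and SLC16A3, the lactate exporter, at 8.14 and 7.82 CPM against 358 and 272 CPM (log2 difference 5.30, SE 0.22). SLC16A1, the other monocarboxylate carrier, was the reverse, at 82.8 and 75.1 CPM against 1.45 and 1.90 CPM. Within KU812 shNC the first library was the higher for NDRG1, PFKFB4 and P4HA1, which hypoxia induces, at 675 against 320 CPM, 119 against 59.4 CPM and 186 against 95.5 CPM.

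Of 32 tested genes of cholesterol and fatty acid synthesis, 22 were higher in KU812 shNC and 1 in LSK WT, ACACA (2 in LSK WT without KU812 shNC replicate 1), with a median log2 difference of 1.39. FASN, fatty acid synthase, was at 380 and 332 CPM against 1918 and 2083 CPM (log2 difference 2.49, SE 0.20). FADS2, a fatty acid desaturase, was at 93.0 and 78.5 CPM against 1406 and 1454 CPM (log2 difference 4.06, SE 0.21). Nuclear genes of the respiratory chain leaned to LSK WT, with 26 of 52 higher there (17 without KU812 shNC replicate 1) and 12 in KU812 shNC.

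Genes of mitosis were called less often in each direction than all genes. G1/S genes leaned to LSK WT, with 45.1% higher there and 23.5% in KU812 shNC, beside 34.6% and 34.3% of all tested symbols. Among 46 tested G2/M and mitosis genes, 14 were higher in KU812 shNC and 11 in LSK WT (7 without KU812 shNC replicate 2 and 15 without LSK WT replicate 2), with a median log2 difference of 0.02 and median percentiles of 73.5 to 78.5 in the 4 libraries. Among 51 G1/S and replication genes, 23 were higher in LSK WT and 12 in KU812 shNC, with a median of -0.29, and the first count fell to 13 without KU812 shNC replicate 1. MKI67, the proliferation marker, was at 887 and 894 CPM in LSK WT and 530 and 509 CPM in KU812 shNC, a call lost without KU812 shNC replicate 2 (edgeR adjusted p = 0.0687), whereas TK1, thymidine kinase, was at 52.0 and 77.0 CPM against 180 and 186 CPM. Of 37 ribosome biogenesis genes, 21 were higher in LSK WT and 4 in KU812 shNC (12 and 5 without KU812 shNC replicate 1, and 20 and 2 without replicate 2).

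DNA repair genes leaned to KU812 shNC, with 19 of 39 tested higher there and 6 in LSK WT (3 in LSK WT without KU812 shNC replicate 1), with a median log2 difference of 0.40. Of the 19, 5 were at least 4-fold higher. Subunits of DNA-PK, which joins broken ends, were among the 19, though not all of them by 4-fold. PRKDC was at 57.8 and 80.2 CPM against 1151 and 1110 CPM (log2 difference 4.04, SE 0.23), XRCC5 had a difference of 3.52 and XRCC6 of 1.80. Of 37 chromatin writers and erasers, 16 were higher in LSK WT (10 without KU812 shNC replicate 2) and 8 in KU812 shNC. TET1 and DNMT3A, which remove and set DNA methylation, were higher in LSK WT at -2.30 and -1.93, and IDH1 was higher in KU812 shNC at 1.85.

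**Figure D4:**
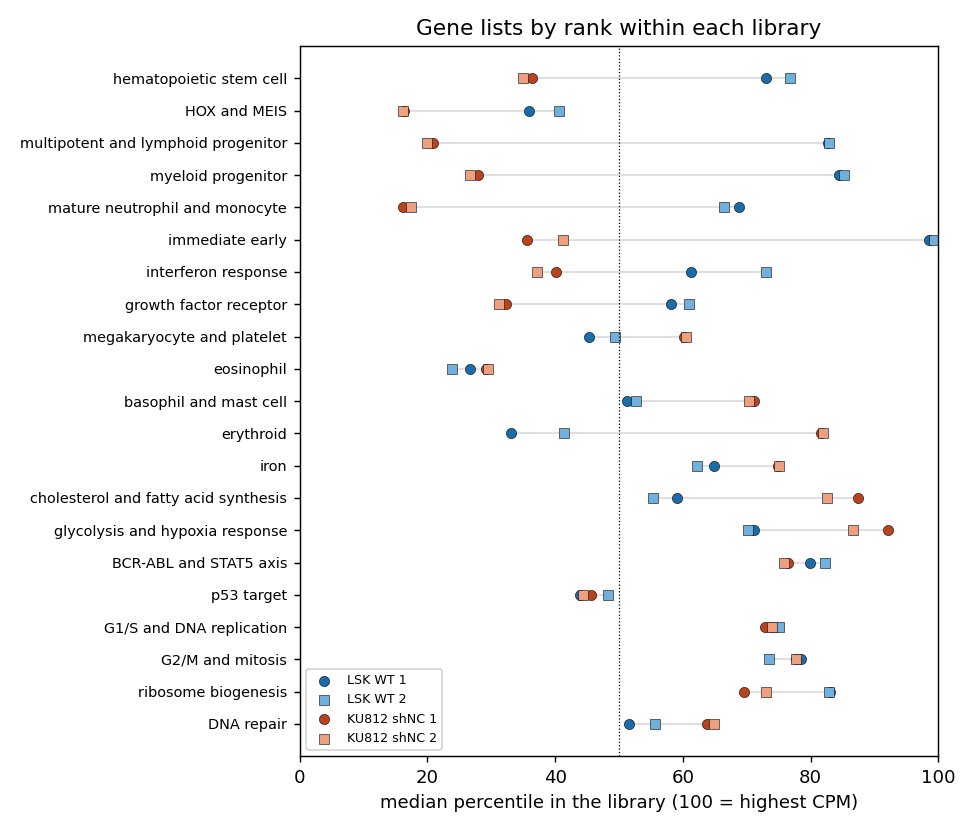
Median percentile of the shared symbols of 21 gene lists within each control library, where 100 is the highest CPM and the dotted line is the median of all shared symbols. Stem cell, progenitor, immediate early and interferon lists sit higher in LSK WT, the erythroid, cholesterol and glycolysis lists higher in KU812 shNC, and the mitosis and p53 lists lie close together.

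**Figure D5:**
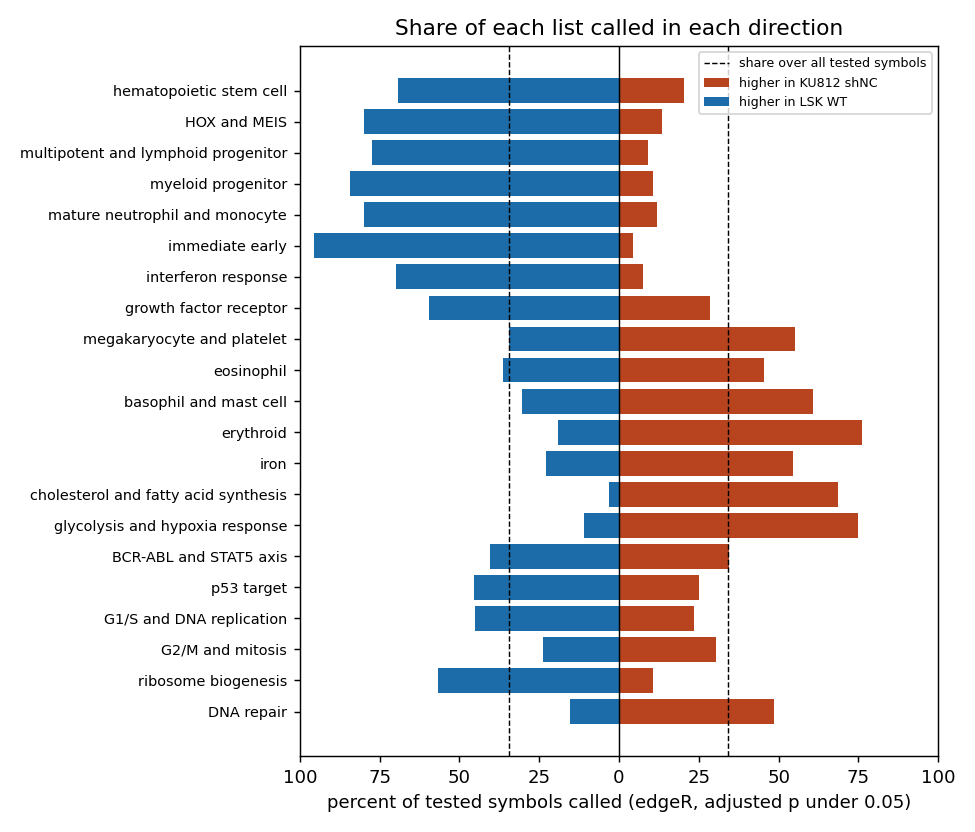
Percent of each list's tested symbols called higher in KU812 shNC (right) or in LSK WT (left), with dashed lines at the shares over all tested symbols, 34.3% and 34.6%. The immediate early list reaches farthest to the left and the erythroid list farthest to the right.

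The largest single differences named genes of other tissues and genes whose counts need care. Higher in KU812 shNC was HSPG2, the matrix proteoglycan perlecan, at 0.921 and 1.04 CPM against 1418 and 1230 CPM (log2 difference 10.40, SE 0.29). HPGD, which breaks down prostaglandins, stood at 1.63 and 1.88 CPM against 1334 and 1496 CPM, STAB1, a scavenger receptor, had a log2 difference of 9.34, and CDH1, the epithelial and erythroblast cadherin, of 8.01. The growth factor gene CLEC11A was higher by 8.06. Higher in LSK WT, beside immunoglobulin genes, were PDE4B, a cyclic AMP phosphodiesterase, at 674 and 437 CPM, SIK1, a kinase that cyclic AMP induces, at 578 and 638 CPM, and WDFY4 at 518 and 453 CPM, each at most 0.483 CPM in KU812 shNC. GRIA3, a glutamate receptor gene, had 1452 and 980 counts in LSK WT and none in KU812 shNC, at least 751-fold higher.

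Some genes that every cell uses were near the floor in 1 group only. RPS9, a ribosomal protein, had 23269 and 15704 counts in LSK WT and 9 and 4 in KU812 shNC. GAPDH, a glycolytic enzyme, was at 79.0 and 130 CPM in LSK WT and 4485 and 4897 CPM in KU812 shNC. Ribosomal protein genes had median log2 differences of 0.37 (small subunit) and -0.09 (large subunit), but their single values ran from -12.50 to 4.64. Near-identical copies of such genes hold reads too: the mouse entry Rps23-ps had 4760 and 3803 counts, while Rps23 had 392 and 333. The sources used here do not say how reads shared between copies were counted, so the values of RPS9, RPS23, GAPDH and other genes with copies are uncertain. Further genes of basic machinery were as low in KU812 shNC, among them the splicing factors PRPF31 and PRPF8, at 126 and 119 CPM against 1.09 and 0.363 CPM and at 785 and 580 CPM against 11.1 and 8.57 CPM. The proteasome subunit PSMC4 was at 154 and 134 CPM against 1.33 and 0.998 CPM, and the initiation factor subunit EIF3K at 249 and 211 CPM against 1.13 and 1.13 CPM. The cause of these low values was not tested.

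The 13 mitochondrially encoded genes, listed without the usual MT prefix, showed the same kind of spread. COX1, ND1 and ND5 were not called, whereas COX2 was at 72.6 and 35.2 CPM in LSK WT against 3038 and 3788 CPM, and COX3 at 45.1 and 20.4 CPM against 3115 and 4141 CPM. These genes are read from the same polycistronic transcripts, and 8 of the 13 were higher in KU812 shNC and 1, CYTB, in LSK WT (2 without either LSK WT library). The shared symbols were also placed on the mouse genome (GRCm38), where 10662 of them had a position in GENCODE M21. In windows of 2000000 bases with at least 10 tested symbols, the window chr17:34000001-36000000, around the mouse MHC, held 12 tested symbols, and all 12 were at least 4-fold higher in LSK WT (median log2 difference -8.26). This was the highest share of 363 windows, and it was chosen after the values were seen. The window chr11:84000001-86000000, which holds ACACA, ranked 3 by that share. Of its 13 tested symbols, 8 were at least 4-fold higher in LSK WT and 0 in KU812 shNC (median log2 difference -2.71).

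Genes of the window around the mouse MHC include housekeeping genes. BRD2, a bromodomain reader of acetylated histones, was at 709 and 970 CPM in LSK WT and 3.34 and 1.09 CPM in KU812 shNC. BAG6, a chaperone of membrane proteins (chr17:35135178-35147322), was at 303 and 346 CPM against 0.402 and 0.317 CPM. TAP2, the peptide transporter of class I presentation (chr17:34203527-34216321), was at 314 and 394 CPM against 1.05 and 1.45 CPM, and PBX2, a partner of HOX proteins (chr17:34591266-34597400), at 77.3 and 85.4 CPM against 0.724 and 0.771 CPM. The highest of the 12 reached 4.50 CPM in a KU812 shNC library, and the lowest level in LSK WT was 10.3 CPM. PBX2, TAP2 and HSPA1B are members of the HOX and MEIS, interferon and cytosolic chaperone lists counted above. The reason for the low values of this neighbourhood was not tested.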

How the data were processed

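Whole-number read counts per gene symbol were used as the authors deposited them, 1 table per library. Tools listed in the submitters' processing notes, without roles or versions, are HISAT2, TopHat, Cufflinks and DESeq, with builds GRCm38 and GRCh38, and the counter, its strand setting and the treatment of multi-mapped reads are unknown here. Symbols were joined between species where their upper-case forms matched once in either table. The 4 control libraries were fitted in edgeR 4.0.16 (R 4.3.3) with filterByExpr, TMM factors over shared symbols and the quasi-likelihood test, with p-values adjusted by Benjamini-Hochberg across the 10668 tested symbols (threshold 0.05). On simulated data the test recovered most 4-fold changes and few 1.5-fold ones, and its share of false calls was above the threshold. The simulation changed only 67, 67 and 66 of 10607 symbols, by 1.5-fold, 2-fold and 4-fold. That is far fewer than were called in the data, so its share of false calls does not carry over to those calls. Alternatives were DESeq2 1.42.0, its size factors, library totals, no filter, all 8 libraries, a replicate block and leaving out each library.

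The comparison, the 41 gene lists and the rule for named genes were chosen with earlier results of these data known. The rule took up to 4 genes of each list with the largest called differences without overlap, the 12 largest in each direction, the 10 highest levels in each group and a set of lineage and signalling genes, 215 in all, with the 10 highest unmatched genes of each species. Other genes with values, among them MYC, FOS, ZFP36, DUSP1, DUSP5, EGR1, B2M, FASN, BCL11A, MKI67 and GRIA3, were chosen after their values were seen, as were the pseudoautosomal genes and the genome windows. Results for a few genes are not reported here.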

Additional observations from a re-analysis of the deposited data

How the results depend on the processing

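The count of called symbols lay between 6476 (without KU812 shNC replicate 1) and 7958 (all 8 libraries) over the settings, against 7340, and was 7169 to 7193 without an LSK WT library and 6476 to 6553 without a KU812 shNC library. With 1 library left in a group, that library was assumed to vary like the other group. The replicate block gave 7089 calls. The labels give same-numbered libraries only a number in common, so the block is not read as pairing. Their deviations from the group means had r = -0.0467 over 9173 genes. Between cells of different species, this value cannot show whether a batch was shared. The mean Spearman correlation of libraries across genes, between the groups, was 0.673 over all symbols. It was 0.6123 over the 9173 symbols with at least 1 CPM in every library, where the fewer symbols span a narrower range of levels. The median of all symbols moved by at most 0.085 (log2) between scalings. Of 264 genes named by the rule or in the text, 255 to 264 kept both direction and side of the threshold under each setting. The CDK6 log2 difference, not called in the comparison (-0.07), ranged from -0.1685 to 0.0707 when 1 library was left out and changed sign without KU812 shNC replicate 1 (0.000107) and without LSK WT replicate 2 (0.0707). Among the genes named, calls were lost under a setting for CCND3, CDKN1A, MDM2, TCF3, CD68, TLR4 and MKI67, as given above, for CD68 and TLR4 also with library totals and for TLR4 with DESeq2 and with the replicate block. IKZF1 lost its call without KU812 shNC replicate 2, and MALAT1 and PSMB3 with DESeq2. ANP32A, ANP32E, COX1, EEF1A1, EEF2, HSP90AB1, ND5 and EPX gained a call under at least 1 setting. The counts of list members printed in the text moved by over 1.5 times only in the leave-one-out fits given beside them, except that LSK WT-high genes of cholesterol and fatty acid synthesis went from 1 to 2 with library totals and with the replicate block, mitochondrially encoded ones from 1 to 2 with DESeq2, and KU812 shNC-high mature myeloid genes from 3 to 1 with library totals. The median log2 difference of the T and NK cell list, -1.60, was smaller in size without LSK WT replicate 1. This list was not the only one to move. Of the 41 lists, 17 moved without LSK WT replicate 1 and 17 without its replicate 2. Without KU812 shNC replicate 1, 11 lists moved, and without its replicate 2 also 11. Under the other settings at most 3 moved, with the replicate block. The sizes of these moves are not given here, so the list medians above are not read as stable to leaving out a library. With 2 libraries a group, differences under 2-fold are the least certain, and genes near the level of 3 counts are given as levels only.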

Other observations

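Further gene groups that belong to no comparison above are given here, and not all of them separated the libraries. Proteasome and translation factor genes were called less often in each direction than all tested symbols. Their median log2 differences were 0.07 and -0.07. The other lists counted here exceeded the share of all tested symbols only on the LSK WT side. Their shares there ran from 38.9% (splicing) to 63.2% (stromal and endothelial). Of 18 tested genes of MHC class II presentation, 9 were higher in LSK WT, 4 in KU812 shNC and 5 were not called, beside 34.6% and 34.3% of all tested symbols. CD74, the invariant chain, was at 1027 and 612 CPM in LSK WT against 2.09 and 1.86 CPM (log2 difference -8.69, SE 0.35). Of 23 tested T and NK cell genes, 11 were higher in LSK WT and 5 in KU812 shNC, each of them by at least 4-fold. NKG7, a granule protein of killer cells, was at 114 and 92.7 CPM against 1.21 and 2.27 CPM, while PRF1, perforin, was at 1.06 and 0.417 CPM against 65.8 and 45.3 CPM and CD4 at 8.36 and 6.05 CPM against 113 and 108 CPM. Of 19 tested stromal and endothelial genes, 12 were higher in LSK WT and 4 in KU812 shNC. The basement membrane collagen genes COL4A1 and COL4A2 were at 73.4 and 59.8 CPM and at 65.6 and 63.8 CPM in LSK WT, and at most 2.41 CPM in KU812 shNC.

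Of 38 adhesion genes, 16 were higher in LSK WT (42.1%) and 11 in KU812 shNC (28.9%), not far from the 34.6% and 34.3% of all tested symbols. ITGA6, the laminin receptor chain, was at 112 and 105 CPM against 3.62 and 3.26 CPM. ITGA5, the fibronectin receptor chain, was at 59.5 and 81.2 CPM against 340 and 343 CPM. Among the histone chaperones HJURP, which loads the centromeric histone, was at 445 and 437 CPM against 84.1 and 83.8 CPM, and ASF1A, a chaperone of new histones, at 41.4 and 46.3 CPM against 112 and 118 CPM. Of 28 genes of the endoplasmic reticulum and its stress response, 13 were higher in LSK WT and 6 in KU812 shNC, and of 36 splicing genes, 14 and 6 (3 in KU812 shNC without its replicate 2). Of 32 proteasome genes 9 were higher in LSK WT (5 without KU812 shNC replicate 1) and 8 in KU812 shNC (3 without its replicate 2). Of 33 translation factor genes 11 were higher in LSK WT and 8 in KU812 shNC (14 without LSK WT replicate 1 and 4 without KU812 shNC replicate 2).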
